A study of Mus musculus with 9 samples.

Results

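A set of 8 genes of 2 neuropeptide systems were followed in neural stem cells with and without deletion of Smchd1: the tachykinin precursor gene Tac1 with the receptor genes Tacr1 and Tacr3, and the somatostatin gene Sst with the receptor genes Sstr1, Sstr2, Sstr3 and Sstr4. They are 8 of the 25965 genes in the deposited table and were found by symbol. They were selected on their measured difference between Smchd1-deleted and control libraries, with Tacr1 and Sstr4 at its opposite ends, so that difference is described for them without a test. Neural stem cells divide to renew themselves and give rise to the neurons and glia of the brain.

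The cells were of C57BL/6 origin and came from E14.5 embryos in which both Smchd1 alleles were floxed (fl/fl), so that Cre recombinase deletes the gene. Each line was divided. One portion was transduced with the retrovirus MSCV-Cre-puro, put under puromycin from 24 h after transduction and harvested on day 7 (del/del), and the other was left untransduced (fl/fl). Loss of Smchd1, the retrovirus with its Cre and the puromycin therefore cannot be told apart in any difference between del/del and fl/fl. No harvest day is given for the fl/fl portion, so a difference in time in culture cannot be told apart from these either. The sample labels give 3 female del/del libraries (lines 1, 2 and 3), 1 male del/del library (line 5), 3 female fl/fl libraries (lines 1, 2 and 3) and 2 male fl/fl libraries (lines 5 and 7). Values below follow that order of lines. The series' design text instead calls all lines female and the controls del/fl, and the sample labels were followed. All alleles of the fl/fl cells remain floxed, and no line without floxed alleles is included.

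Tachykinins such as substance P and neurokinin A are cut from precursor proteins and act on G protein-coupled receptors that couple mainly to Gq, which raises cell calcium. Somatostatin is an inhibitory peptide whose receptors couple mainly to Gi, which lowers cyclic AMP. In the brain both peptides are made by sets of neurons, somatostatin above all by a class of inhibitory interneurons, and their receptors are found on neurons and glia.

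The promoters of Tacr1 and Sstr4 are shown because these were the members whose del/del and fl/fl levels did not overlap. Both are given 5′ to 3′ from RefSeq on GRCm38.p6, the assembly also known as mm10, on the plus strand. Capitals mark CpG, the pair of bases at which mouse DNA is methylated. Tacr1 is shown over the 250 bases before its start (chr6:82402225-82402474), and Sstr4 over 217 bases (chr2:148395127-148395343), cut where its GENCODE transcript starts. The Tacr1 stretch was not cut, though a non-coding GENCODE transcript of the gene with a retained intron starts within it, at 82402334.

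Tacr1: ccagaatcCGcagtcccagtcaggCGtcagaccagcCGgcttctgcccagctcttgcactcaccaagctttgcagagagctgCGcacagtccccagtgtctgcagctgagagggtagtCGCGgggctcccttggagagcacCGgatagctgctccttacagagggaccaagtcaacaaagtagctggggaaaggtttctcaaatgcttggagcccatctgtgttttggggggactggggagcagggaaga

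Sstr4: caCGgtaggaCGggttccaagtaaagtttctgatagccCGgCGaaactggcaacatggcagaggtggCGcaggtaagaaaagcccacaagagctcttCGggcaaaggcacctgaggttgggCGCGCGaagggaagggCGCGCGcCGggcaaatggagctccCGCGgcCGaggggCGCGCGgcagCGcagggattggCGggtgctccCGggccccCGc

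Over the full 250 bases before the RefSeq start, the Tacr1 promoter holds 7 CpG and the Sstr4 promoter 28. The median of 32851 mouse promoters of that length is 6 CpG, and Sstr4 has more than 92.4% of them. The Sst promoter is shown for its cyclic AMP response element, the site known from textbooks to tie this gene to cyclic AMP, with the element in capitals (30 bases, minus strand, chr16:23890874-23890903). It lies before the RefSeq start, but GENCODE lists the gene from 23889573 to 23890958, so the stretch shown is inside the GENCODE gene.

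Sst: gcctccttggcTGACGTCAgagagagagtt

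The element searched for was TGACGTCA, which reads the same on both strands. It begins 48 bases before the RefSeq start of Sst and 58 bases before that of Sstr2, and 1.55% of the promoters hold it. Of the 8 members, 7 had a promoter entry, and these letters were in no window of the other 5. Sstr1 had none.

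Levels are log2 RPM, where RPM is the number of reads per 1000000 reads of the library's total, so that 0 means 1 RPM and a step of 1 is a doubling. Totals ran from 24.1 M to 116.6 M reads, with 34.8% to 53.3% of them in listed genes. The female fl/fl library of line 2 stood apart, with the lowest total and the highest share in genes, and its median level over the tested genes was 4.46 against 4.10 to 4.38 in the others. Smchd1 itself was lower in every del/del library (5.04 to 5.36 log2 RPM) than in any fl/fl library (6.16 to 6.81), and its count runs over the whole gene, beyond any deleted piece. Pooled over libraries, the del/del to fl/fl ratio of Smchd1 RPM was 0.460, so its RNA was reduced and not absent. Whether the rest came from undeleted cells or from outside the deleted piece was not tested. All 13 neural stem cell markers were measured, such as Nes (7.21 to 8.45), Sox2 (5.28 to 6.46) and Pax6 (4.39 to 4.72), and none of them passed the test in either direction. Of the microglial markers Cx3cr1 was listed at 6.38 to 6.85, over a counted span that overlaps Wdr48, Gorasp1, Ttc21a, Csrnp1 and Xirp1 and may hold their reads, while C1qa had no read in any library. The spans of Sox2 and Pax6 also overlap other genes.

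Tac1 encodes the precursor of substance P and neurokinin A, and it was weakly expressed in both groups. The del/del libraries held 33, 49, 82 and 61 reads of Tac1, at -1.17, -1.10, -0.27 and -0.74 log2 RPM. The fl/fl libraries held 62, 23, 96, 47 and 77 reads, at -0.91, -0.07, -0.19, -1.16 and -0.58. The groups overlapped almost fully, with the lowest and the highest fl/fl level enclosing 3 of the 4 del/del levels. Pooled over libraries, the del/del to fl/fl ratio of Tac1 RPM was 0.914 (95% interval 0.766 to 1.09). Such an interval is exact for the split of the reads and covers counting error only, not the spread between lines.

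Tacr1 encodes the NK1 receptor, the main receptor of substance P, and it was near silent in fl/fl cells and present in del/del cells. The del/del libraries held 178, 158, 106 and 175 reads of Tacr1, at 1.27, 0.59, 0.10 and 0.78 log2 RPM. The fl/fl libraries held 21, 2, 28, 19 and 25 reads, at -2.47, -3.59, -1.97, -2.47 and -2.21. Every del/del library was above every fl/fl library, with a gap of 2.07 between the groups. The del/del mean was 0.68 ± 0.483 (SD, n = 4), and the fl/fl mean was -2.54 ± 0.623 (SD, n = 5). With sex in the model the difference was 3.26 (SE 0.495), or 9.61-fold, the 5th highest of the 14044 genes that passed the filter on low values. Without the female fl/fl library of line 2, which held 2 Tacr1 reads, it was 2.96. Pooled Tacr1 RPM was 8.05 times as high in del/del (95% interval 6.48 to 10.1). In bulk RNA fewer cells of a type and less RNA per cell cannot be told apart, so a rise of Tacr1 in all cells and a larger share of Tacr1-expressing cells give the same value.

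Markers of other cell types also moved between these groups. Among 11 astrocyte markers, all measured, 3 rose: Gfap (2.07), Aqp4 (1.66) and Slc1a2 (0.66, log2 fold changes), while the list's summed level was 402 to 514 RPM in del/del and 323 to 572 RPM in fl/fl. The list's median log2 fold change was 0.40. The model with lines as blocks called 4 of the 11 higher, where it called 529 of all 14044 tested genes higher. Among 12 neuron markers, 11 were measured and 2 rose, the neurofilament genes Nefm (1.49) and Nefl (1.25), whose counted spans overlap. The neuron list summed to 314 to 366 RPM in del/del and 279 to 521 RPM in fl/fl, and its median was -0.24. All 5 calls were lost without the male del/del library (limma, Benjamini-Hochberg adjusted p from 0.0717 for Nefm to 0.257 for Slc1a2). Without that library only 2 of all 14044 tested genes passed, so a call lost there, here or below, is not particular to its gene. The 3 astrocyte calls also went without the female del/del library of line 1 or 2 or the female fl/fl library of line 3 (adjusted p 0.0538 to 0.146), those of Aqp4 (0.0551) and Slc1a2 (0.0693) without female del/del line 3, and Slc1a2 without the fl/fl library of male line 5 (0.0580). Of 7 endothelial markers 2 were tested and neither passed, but Flt1 (1.84, adjusted p = 0.106) passed with the line as a block (0.00995), and the list summed to 4.61 to 8.75 RPM in del/del and 2.94 to 5.59 RPM in fl/fl. The part of these markers in the Tacr1 difference was not tested.

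Tacr3 encodes the NK3 receptor, whose preferred ligand is neurokinin B, and few reads were found. There were 14, 18, 22 and 18 Tacr3 reads in del/del libraries (-2.40, -2.55, -2.17 and -2.50 log2 RPM). In fl/fl libraries there were 25, 8, 11, 26 and 2 (-2.22, -1.59, -3.32, -2.01 and -5.85). The del/del levels lay within 0.4 of each other, inside the fl/fl range, and the lowest of all was the male fl/fl library of line 7. The pooled Tacr3 ratio was 1.24 (95% interval 0.881 to 1.74). The tachykinin genes outside the 8 were at or close to the limit of the libraries: Tac2, the neurokinin B precursor, had 2 reads in the male del/del library, 1 read in the female fl/fl library of line 2 and none elsewhere. Tacr2, the NK2 receptor, had 2 reads in 1 library, and Tac4 had 1 to 16 reads per library.

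Sst, the somatostatin precursor, was not detected in 7 of the 9 libraries. It had 3 reads in the male del/del library and 4 in the female fl/fl library of line 1. A count of 0 allows up to 3 reads, which in these libraries is 0.0260 to 0.124 RPM. Both the del/del and the fl/fl levels therefore lay at the detection limit, and no fold is given. Cort, which encodes the related peptide cortistatin, had 12 to 18 reads in del/del and 0 to 28 in fl/fl libraries.

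Sstr4 was the most strongly expressed of the 8 and the one whose del/del levels all lay below the fl/fl levels. It encodes a somatostatin receptor of the group that includes Sstr1. The del/del libraries held 265, 395, 402 and 394 reads of Sstr4, at 1.84, 1.91, 2.02 and 1.95 log2 RPM. The fl/fl libraries held 625, 156, 596, 633 and 876 reads, at 2.42, 2.69, 2.44, 2.59 and 2.92. All del/del libraries were below all fl/fl libraries, with a gap of 0.40. The means were 1.93 ± 0.0765 (SD, n = 4) and 2.61 ± 0.206 (SD, n = 5), so the del/del lines were closer to each other than the fl/fl lines. With sex in the model the difference was -0.66 (SE 0.124), 1.58-fold lower, the 30th lowest of 14044. The pooled Sstr4 ratio was 0.625 (95% interval 0.587 to 0.666).

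Sstr2, which encodes the receptor that many clinical somatostatin analogues bind, lay near 1 RPM. Its reads numbered 173, 229, 100 and 148 in del/del (1.22, 1.12, 0.02 and 0.54 log2 RPM). In fl/fl they numbered 142, 34, 148, 104 and 138 (0.28, 0.50, 0.43, -0.01 and 0.26). Female lines 1 and 2 were the highest in del/del, and the del/del library of line 3 was inside the fl/fl range, so the groups overlapped. The sex-adjusted difference was 0.39 (SE 0.276), 1.31-fold. Its pooled ratio was 1.42 (95% interval 1.27 to 1.60), an interval that leaves out the spread between lines. The counted span of Sstr2 (chromosome 11, 113619342 to 113626005) lies inside that of Slc39a11, and the strand setting is not given in the sources used here, so their reads cannot be told apart. Slc39a11 had a difference of 0.24 (limma adjusted p = 0.521).

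Sstr1 and Sstr3 were low and did not separate the groups. Sstr1 had 21, 20, 11 and 31 reads in del/del (-1.82, -2.39, -3.17 and -1.72 log2 RPM). It had 9, 9, 34, 20 and 36 in fl/fl (-3.70, -1.42, -1.69, -2.39 and -1.68). Both groups ran over more than 1 log2 unit, and the pooled Sstr1 ratio was 0.952 (95% interval 0.707 to 1.28). Sstr3 had 2, 6, 4 and 8 reads in del/del (-5.21, -4.13, -4.63 and -3.67 log2 RPM). In fl/fl it had 12, 0, 13, 3 and 9 reads, at -3.28, listed at -4.74 for the 0, -3.08, -5.13 and -3.68. A 0 was entered as 0.9 reads, so that listed level reflects the shallow library of line 2 and not a read. The pooled Sstr3 ratio was 0.670 (95% interval 0.368 to 1.18). Sstr5, the other somatostatin receptor gene, had 0 to 4 reads per library.

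**Figure D1:**
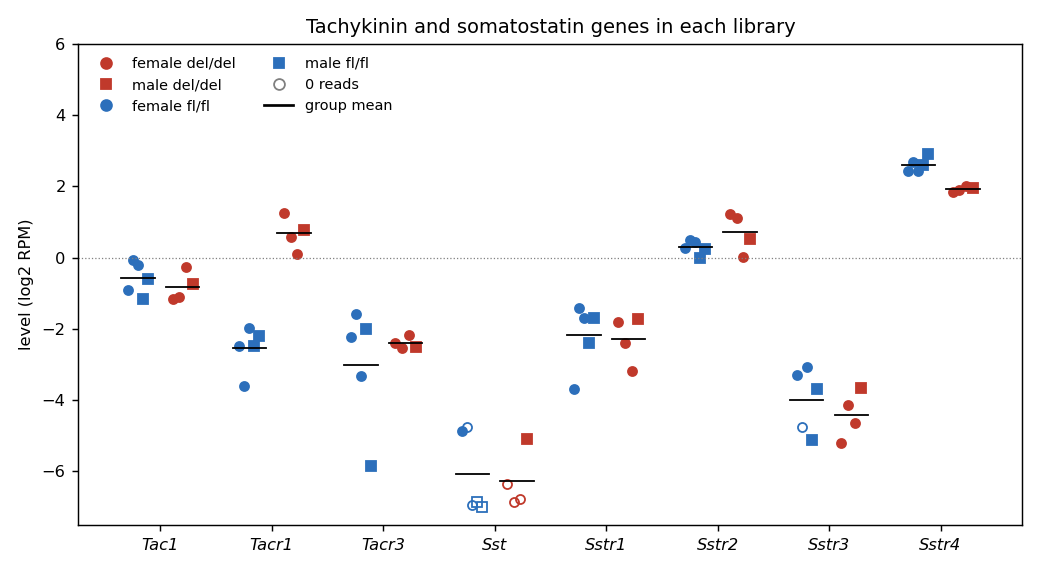
Level of each of the 8 genes in every library, in log2 RPM, with circles for female and squares for male lines, red for del/del, blue for fl/fl, open symbols for libraries with 0 reads (placed at the deposited value for 0.9 reads) and bars for group means. The 4 del/del libraries lie above all 5 fl/fl libraries for Tacr1 and below them for Sstr4, and the groups overlap for the other 6 genes.

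Of the 8 genes, 3 passed the filter on low values (log2 RPM of at least 0 in at least 3 libraries): Sstr4, Sstr2 and Tacr1, the last only through its 4 del/del libraries. Of all genes tested with limma, 1.45% were called as rises, Tacr1 with them, and 0.0997% as falls, Sstr4 with them. Levels that did not overlap between groups, as for Tacr1 and Sstr4, were found for 6.52% of genes. The members were chosen from this same contrast, so these 2 calls follow from the selection, count as no test of the members, and nothing is read from them.

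Within lines, the del/del minus fl/fl difference of Tacr1 was 3.74, 4.18 and 2.07 in female lines 1, 2 and 3 and 3.25 in male line 5. For Sstr4 it was -0.58, -0.78, -0.42 and -0.64. Both genes kept 1 direction in all 4 lines, which follows from their groups not overlapping and adds nothing to it. In line 3 both differences were at their smallest. The Sstr2 difference was 0.94, 0.63 and 0.55 in lines 1, 2 and 5 but -0.42 in line 3. Tac1 differed by -0.25, -1.03, -0.08 and 0.42, Tacr3 by -0.18, -0.95, 1.15 and -0.49. Sstr1 differed by 1.88, -0.97, -1.48 and 0.68, and Sstr3 by -1.93, 0.61, -1.55 and 1.46. None of these last 4 genes had 1 direction in all lines. The median over all tested genes was 0.22, -0.25, 0.10 and 0.08, lowest in line 2, whose fl/fl library stood apart in scale.

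**Figure D2:**
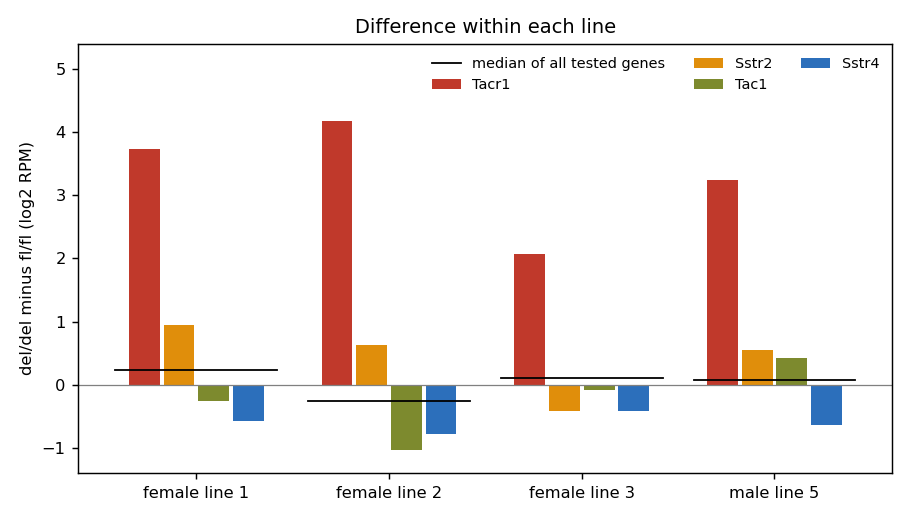
Difference between the del/del and the fl/fl library of each line, in log2 RPM, for Tacr1, Sstr2, Tac1 and Sstr4 (bars), with the median over all tested genes of that line as a black line. Tacr1 is above 2 and Sstr4 below -0.4 in each of the 4 lines, while Sstr2 is negative in female line 3 and Tac1 is positive only in male line 5.

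The library descriptions fall into 6 with an RNA- prefix and 3 without, a difference whose meaning the labels do not give. Tacr1 differed by 3.17 among the libraries with the prefix (3 del/del against 3 fl/fl) and by 3.61 among those without (1 against 2). Sstr4 differed by -0.61 and -0.83. Sstr2 differed by 0.25 and 0.95, larger in the smaller set.

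Levels of different genes were compared per length in the fl/fl libraries, as RPM per kb of GENCODE exon. Sstr4 came first at 4.34 ± 0.641 (SD, n = 5), then Sstr2 at 0.575 ± 0.0755 and Tac1 at 0.204 ± 0.0638. Sstr4 did not overlap Sstr2, and Sstr2 did not overlap Tac1. The counted span of Sstr2 lies inside that of Slc39a11, so the level of Sstr2 may hold reads of Slc39a11. After these came Sstr1 (0.123 ± 0.0578), Tacr3 (0.0485 ± 0.0330), Tacr1 (0.0282 ± 0.00985), Sstr3 (0.0152 ± 0.0116) and Sst (0.00951 ± 0.0213), each overlapping the next, as Tac1 overlapped Sstr1. The counted span of Sstr4 (chromosome 2, 148395377 to 148400503) runs past the end of its 1.424 kb single exon at 148396767, so its level per exon kb may hold reads from beyond the exon. Per kb of counted span Sstr4 (1.20) and Sstr2 (0.185) were again first and second, and on that measure Sstr4 was higher than 78.2% of all genes. A span includes introns, so that rank depends on gene structure as well as on level. The order of the other 6 changed with the length used. Per kb of span it was Sstr1, Tac1, Sstr3, Sst, Tacr3 and Tacr1, the last pair having the longest spans.

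The members were selected on the del/del against fl/fl contrast and not on sex. Female and male fl/fl libraries were compared for the tested members. The fl/fl levels enter both contrasts, so this comparison is not independent of the selection. Female minus male fl/fl was 0.28 for Sstr2 (SE 0.402) and -0.24 for Sstr4 (SE 0.178), on the log2 scale. Neither passed (limma adjusted p = 0.992 for each), where 0.0356% of all genes did. Only 14 of the 14044 genes had a limma unadjusted p under 0.05. That is fewer than the share of 0.05 that unaffected genes would give, so this contrast called few genes of any kind. For Tacr1, which has 2 to 28 reads in these libraries and passed the filter through the others, the means were -2.68 and -2.34, given without a test. With 3 against 2 libraries, differences as small as these standard errors could not be detected. The lack of a call is therefore not read as a lack of a sex difference. The difference of the deletion effect between females and males was 0.21 for Tacr1 (SE 1.18), -0.03 for Sstr2 (SE 0.648) and 0.21 for Sstr4 (SE 0.288). These rest on the same del/del and fl/fl values that chose the members and are given without a test. Over all genes 0.0% passed by limma, with 6 at an unadjusted p under 0.05, and limma voom also called 0, with 9 at an unadjusted p under 0.05. There was 1 male del/del library, whose spread was taken from the other groups.

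Neighbouring genes were examined for the pair of members whose groups did not overlap. Tacr1 covers chromosome 6 from 82402475 to 82560103 on the plus strand (mm10), in 7 exon blocks, and overlaps no other counted gene. The nearest tested gene before it, Fam176a (now Eva1a, a regulator of autophagy and apoptosis), ends 309 kb away. Its levels were 0.09, 0.90, 1.20 and 1.27 log2 RPM in del/del and -1.47, -0.89, -0.82, -2.01 and -0.34 in fl/fl. These groups did not overlap either, and the difference was 1.99 (SE 0.421), 3.98-fold. Its limma adjusted p was 0.0524, just over the threshold of 0.05. Over 17 alternatives the adjusted p ran from 0.00835, with the line as a block, to 0.394, and it passed in 7. On the other side Pole4, a subunit of DNA polymerase epsilon 58.9 kb away, differed by -0.14 (adjusted p = 0.997). Beside Sstr4, Nkx2-2as (1064 kb before) differed by 0.09 (adjusted p = 0.997) and Cd93 (36.1 kb after) by -0.29 (adjusted p = 0.962).

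**Figure D3:**
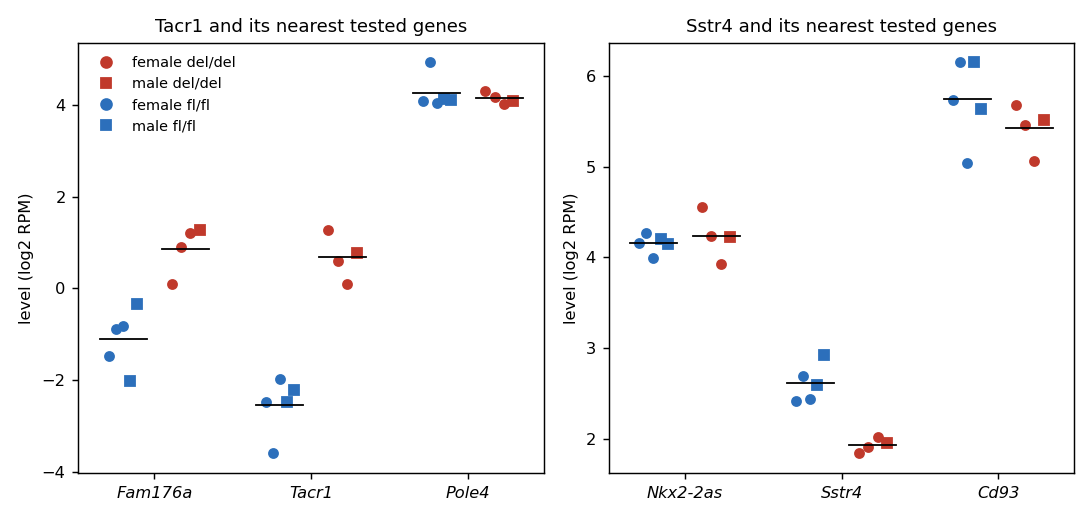
Levels in log2 RPM of Tacr1 and Sstr4 in every library beside the nearest tested gene on either side, with symbols as for the plot of the 8 genes and bars for group means. Fam176a has all 4 del/del libraries above the 5 fl/fl libraries, as Tacr1 does, and the groups overlap for Pole4, Nkx2-2as and Cd93.

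The tested genes most like each member were found by Pearson's r of the log2 level over the 9 libraries, as a description, since all points share the same 2 groups. For Tacr1 these were Ptprn (r = 0.986, Spearman's rho = 0.967), a membrane protein of dense-core vesicles, Runx1 (0.985, 0.883), a transcription factor, and Gabra4 (0.982, 0.967), a GABA-A receptor subunit. For Sstr2 they were the Wnt ligand Wnt5b (0.953, 0.933), Spsb1 (0.937, 0.950) and Chst10 (0.920, 0.800). For Sstr4 they were Vash2 (0.943, 0.817), Sh3kbp1 (0.938, 0.90) and the connexin gene Gjc3 (0.935, 0.967).

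The other genes of the pathways were read from the same fit. Of 86 genes on 7 lists, 68 were tested, 3 rose and 0 fell, where 1.45% of all tested genes rose and 0.0997% fell. The median difference of the 68 was 0.04 on the log2 scale, against 0.00 over all tested genes. At an unadjusted p under 0.05, 12 were higher and 2 lower, which is 20.6% of the 68, beside 9.84% of all tested genes. With the line as a block 5 rose. The 5 other ligand and receptor genes were all below the filter.

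Among genes that cut and store peptide precursors, 12 of 14 were tested and 1 rose, with a median of 0.15. That gene was Pcsk2, the prohormone convertase PC2, which cuts somatostatin and tachykinin precursors among others. Its counted span overlaps C630020P19Rik and Gm12360. Pcsk2 was at 1.46, 0.95, 1.30 and 1.33 log2 RPM in del/del and at -0.02, -0.78, -0.09, -0.81 and -0.48 in fl/fl. The groups did not overlap, and the difference was 1.67 (SE 0.257), 3.18-fold (limma adjusted p = 0.0146, 0.00449 to 0.177 over 17 alternatives). The call was lost without female del/del line 1 (adjusted p = 0.0597) or male del/del line 5 (0.177). Pcsk1n, which encodes an inhibitor of the convertase PC1, had 0.63 (adjusted p = 0.204, and 0.0389 with the line as a block). Pcsk6 and Chga had 0.39 each.

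The 6 tested of 9 peptidases that break these peptides down had a median of 0.01 and none passed, with Ece1 at 0.09, Thop1 at 0.07, Prep at -0.11 and Ece2 at -0.03. On the Gq and calcium side, which tachykinin receptors use, none of 11 tested genes of 13 passed and the median was -0.03. The phospholipase genes Plcb1 (0.31, limma adjusted p = 0.319) and Plcb4 (-0.18) were among those with the smallest p.

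On the Gi and cyclic AMP side, which somatostatin receptors use, 14 of 20 were tested and 1 rose, with a median of -0.03. Adcy2, an adenylyl cyclase that makes cyclic AMP, was at 1.68, 2.19, 2.36 and 2.38 log2 RPM in del/del. In fl/fl it was at -0.70, 1.08, 0.70, 0.41 and 0.12, and the groups did not overlap. The difference was 1.84 (SE 0.343), 3.58-fold (limma adjusted p = 0.0309, 0.00449 to 0.257 over 17 alternatives). Leaving out any del/del library, or the fl/fl library of female line 3, male line 5 or male line 7, ended the call (adjusted p 0.0573 to 0.257). Gnaz, Ptprj and Gnao1 had -0.42, 0.27 and 0.24.

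Of the 9 genes that switch such receptors off, all were tested, 1 rose and the median was -0.11. Grk4, a G protein-coupled receptor kinase, was at 2.33, 2.38, 2.40 and 2.34 in del/del against 1.79, 1.41, 1.39, 1.58 and 1.60 log2 RPM in fl/fl. The del/del levels were nearly equal and all above fl/fl, with a difference of 0.81 (SE 0.127), 1.76-fold (limma adjusted p = 0.0157, 0.0100 to 0.136 over 17 alternatives). Its call was lost without female del/del line 1 (adjusted p = 0.0592) or line 2 (0.0782), female fl/fl line 3 (0.0524) or male del/del line 5 (0.136). Rgs4, which speeds the switching off of Gq and Gi, had 0.61 (adjusted p = 0.0641, and 0.0336 with the line as a block), and Arrb1 had -0.38. None of 16 activity-response genes passed, with a median of 0.14 and with Fosl1 at 0.42, Crem at 0.28, Nr4a2 at 0.24 and Nr4a1 at 0.22.

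**Figure D4:**
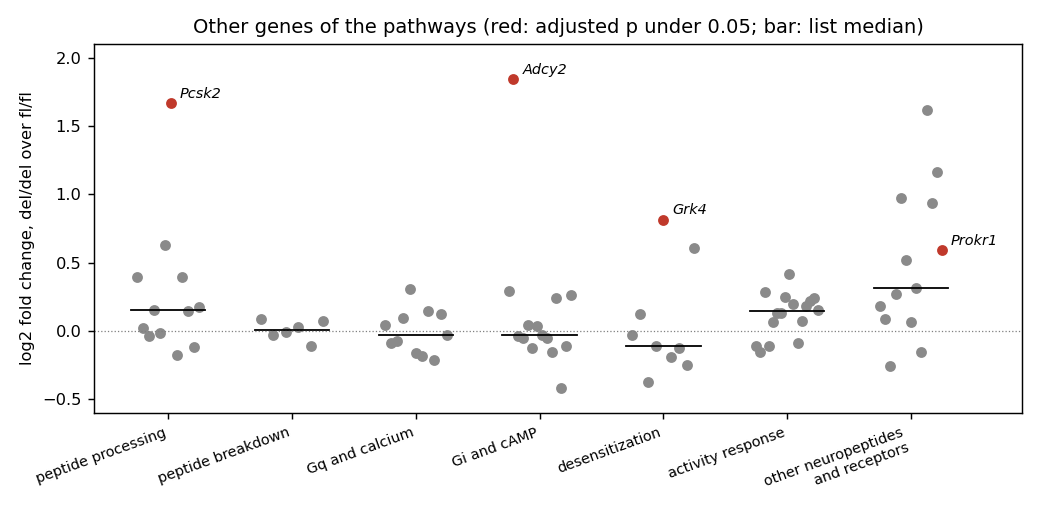
Log2 fold change, del/del over fl/fl with sex in the model, of every tested gene of 7 lists, 1 point per gene, with red and a name where the limma adjusted p was under 0.05 and a bar at each list's median. Pcsk2, Adcy2, Grk4 and Prokr1 are the named points, and the medians run from -0.11 to 0.32.

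Other neuropeptide systems were mostly unmeasured here: 46 of 59 peptide and receptor genes were below the filter, and the 13 tested had a median of 0.32. Prokr1, a prokineticin receptor, rose by 0.59 (limma adjusted p = 0.0481), a call lost without any 1 library except the fl/fl library of female line 1 (adjusted p 0.0567 to 0.304). The receptor genes Npy1r (1.62, adjusted p = 0.0679), Ntsr2 (0.94, 0.0956) and Oxtr (1.17, 0.160) had larger values and did not pass. In the model with lines as blocks 5 genes rose, Npy1r (adjusted p = 0.0168), Ntsr2 (0.0369), Oxtr (0.0269), Prokr1 (0.0325) and the endothelin gene Edn1 (0.0477). That model called 529 of all 14044 tested genes as rises, and 226 when median centring was added. Of 14 interneuron markers, 12 were below the filter, among them Lhx6, Npy and Slc32a1. The other 2 were Reln (1.76, adjusted p = 0.00751, and 0.0930 without the male del/del library) and Gad1 (0.80, adjusted p = 0.214, and 0.0348 with the line as a block). The interneuron list, which does not include Sst, summed to 32.4 to 47.5 RPM in del/del and 14.1 to 28.8 RPM in fl/fl. Most of that sum came from Gad1 (mean log2 RPM 4.56 in del/del and 3.76 in fl/fl) and Reln (3.72 and 1.99). Sst itself was at its detection limit in both groups.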

How the data were processed

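RNA of 9 libraries was sequenced. Per the submitters' processing notes, bcl2fastq, TopHat2 2.0.12, edgeR 3.8.2 and the build mm10 were used. How reads were counted, with which annotation and on which strand is not given in the sources used here. Deposited by the authors were log2 RPM values, scaled to each library's total reads. At least 99.9948% of values per library were whole reads (tolerance 0.05 reads), with 0 entered as 0.9, and these reads are the counts quoted.

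Titles gave the groups and line numbers. Genes with a log2 RPM of at least 0 in at least 3 libraries (14044 of 25965) were tested with limma 3.58.1 in R 4.3.3 (trend, two-sided, Benjamini-Hochberg adjustment over all tested genes, threshold 0.05). Del/del was compared with fl/fl with sex as a covariate. Sex contrasts came from a model of 4 group means. Within a genotype each library is a separate line. Lines 1, 2, 3 and 5 gave a library to both genotypes. The main model treated these as independent, so its p-values ignore that pairing, which the line block takes into account. No count model was run on the deposited log2 values. Reads of the 8 genes were pooled per group for ratios with exact 95% intervals. Named genes are the 8 members, up to 4 per list with the smallest p, the 3 most similar genes per tested member, the nearest tested genes to Tacr1 and Sstr4, and Smchd1. Outside that rule, Slc39a11, Edn1, Nes, Sox2, Pax6, C1qa, Lhx6, Npy, Slc32a1, the 5 untested ligand and receptor genes and the genes overlapping a named one were named after their values were seen. The members and lists were chosen with earlier results of these data known. Lists of neural stem cell, neuron, interneuron, astrocyte, oligodendrocyte-lineage, microglial, endothelial and fibroblast markers were read alongside. The last 4 had no gene past the threshold in the main model, with 6 of 9, 3 of 9, 2 of 7 and 2 of 8 genes tested.

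Since each line was split, del/del and fl/fl libraries of 1 number come from 1 line. As a check, deviations from group means correlated within lines 1, 2 and 3 at r = 0.868, 0.582 and 0.758 across genes, while female del/del 2 with female fl/fl 3 gave 0.728. Tests were checked on simulated counts drawn without line effects or pairing, so that check does not cover these features of the data. Promoter sequences are from RefSeq (GRCm38.p6), exons from GENCODE vM21. Alternatives were the line block, centring, quantile normalization, log2(RPM + 1), no filter, voom on recovered reads, the 6 libraries with the RNA- prefix, and leaving out each library.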

Additional observations from a re-analysis of the deposited data

Results flagged for a closer look

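The Tac1 difference between del/del and fl/fl was 0.42 in male line 5, against -0.25, -1.03 and -0.08 in female lines 1, 2 and 3, so the 1 male line moved opposite to all 3 female lines. Tac1 was below the filter. Fitted without that filter, its deletion effect differed between the sexes by -0.59 (female minus male, SE 0.744), and the limma adjusted p was 1.00. That model has 1 male del/del library, and the values are those that chose the members, so nothing is drawn from this p. No library stood out from its group by Dixon's criterion in the 16 groups of 4 or 5 libraries examined for the 8 genes, where chance alone gives about 1 in 20.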

How the results depend on the processing

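Over 17 alternatives the difference of Tacr1 was 1.16 (log2 of RPM plus 1, which shrinks low genes) to 3.48, and 2.96 to 3.48 with 1 library left out. That of Sstr4 was -0.79 to -0.55, and -0.70 to -0.59 with 1 library left out. These ranges are descriptions, since the members were chosen on this contrast. Their calls did not hold throughout. Tacr1 was called in 13 of the 17 alternatives, and in 6 of the 9 that left out 1 library. Sstr4 was called in 9 of the 17, and in 3 of those 9. Sstr2 was highest at 0.64, without the del/del library of female line 3, and changed sign with quantile normalization (-0.0062). The cause was not tested. The line as a replicate block gave 3.31 for Tacr1, -0.61 for Sstr4 and 0.43 for Sstr2. Genes past the threshold in del/del against fl/fl numbered 217, or 561 with the line as a replicate block, 104 with quantile normalization and 2 to 252 when 1 library was left out, 2 being without the male del/del library. Pathway genes past it numbered 3, or 5 with the replicate block, 1 with quantile normalization, 5 without the filter and 0 to 3 when 1 library was left out. Female against male fl/fl gave 5 genes, or 2 to 6 with 1 library left out. A block could not be fitted there because lines differ by sex, and the sex difference of the effect was not run without the male del/del library. At 0 to 36 reads, differences in Tacr3, Sstr1 and Sstr3 are limited by depth.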
